A study of Mus musculus with 28 samples.

Results

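The livers of 9 mice treated with INT-787 were compared with those of 10 mice treated with vehicle, out of 28 mice whose hepatic messenger RNA was sequenced. The 19 mice were chosen by the treatment in their sample labels and all genes were examined. All were male B6.V-Lepob/JRj mice, which lack leptin through the Lepob allele and become obese. Before dosing, all had eaten the AMLN diet for 14 weeks, which supplies cholesterol, fructose, and much fat and is used to induce nonalcoholic steatohepatitis (NASH). INT-787 at 30 mg/kg or vehicle was then given orally once daily for 2 weeks. The other 9 mice received obeticholic acid (OCA) at 30 mg/kg under the same genotype and diet. OCA mice were included in the fit and are described only where INT-787 is compared with OCA. No lean or untreated mice were analysed here, so all values describe treatment of mice already fed this diet. The liver markers *Alb*, *Ttr*, *Apoa1*, *Apob*, *Trf*, *Ahsg*, and *Asgr1* were all abundant, and the lowest value of any of them in any of the 19 mice was 290.0 CPM (counts scaled to the size of each library), for *Asgr1*.

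INT-787 and OCA are agonists of the farnesoid X receptor (FXR), a nuclear receptor that is activated by bile acids. In hepatocytes, FXR signaling lowers the synthesis of bile acids from cholesterol and increases their export into bile, and it also affects lipid, glucose, and amino acid metabolism. In NASH, fat accumulates in hepatocytes, macrophages and other leukocytes gather in the tissue, and activated stellate cells deposit matrix.

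Each INT-787 mouse had between 12513715 and 22128216 counts (median 14777433), and 9 of the vehicle mice had 9313260 to 18342272. Vehicle replicate 6 had 1009593 counts, so that a gene at 5 CPM had 5.44 counts in that mouse. Vehicle replicate 5 stood apart in another way. Over 86 genes that had a median under 1 CPM and lay for at least 50% of their exon length opposite another gene's exons, counts summed to 211 CPM in vehicle replicate 5 and to 5.68 to 11.5 CPM in the other 27 mice. Both mice were kept, and results that rest on either are also given without them.

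INT-787 changed the expression of 2469 of 12580 tested genes (19.6%) at an adjusted p of at most 0.05 in edgeR's quasi-likelihood test. Of these, 1277 rose (10.2% of tested genes) and 1192 fell (9.48%). Most changes were moderate. The median change among these genes was 1.47-fold in either direction, and 183 genes rose and 180 fell at least 2-fold. The median log2 fold change of all tested genes was -0.001. The balance between rises and falls depended on the scaling, since 51.7% of the changed genes rose with the TMM scaling used here and 37.5% with upper-quartile scaling, which called 960 genes up and 1597 down. Fold changes below are log2 values of INT-787 over vehicle with their SE, and levels are CPM with the range over 10 vehicle and 9 INT-787 mice. In whole liver, a lower level can come from fewer cells of a type or from less RNA per cell, and these cannot be told apart.

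Several groups of genes that the study itself did not label changed. All 4 enzymes that degrade histidine rose, within a wider rise of amino acid catabolism and other genes of periportal hepatocytes. Genes for drug metabolism rose, with 22 of 42 tested phase II genes up, and cholesterol synthesis genes rose in 12 of 22. Acute phase genes fell in 17 of 35 tested members and rose in 2, with the deepest falls in metallothioneins and *Fgl1*. Genes for noncollagen matrix and crosslinking fell in 25 of 55 tested members, markers of lipid-associated macrophages in 11 of 15, myofibroblast markers in 8 of 16, and monocyte and neutrophil markers in 4 of 8. In total, 365 of 995 tested genes in 46 lists of pathways and cell types changed, 190 up and 175 down. That is 36.7%, against 19.6% of all tested genes. The lists were written with earlier results of these data known, so their counts are a description. The shares of lipoprotein, pericentral, lysosomal, iron handling, and hepatokine genes that changed lay near the 10.2% and 9.48% of all tested genes that rose and fell, and these lists did not stand apart by their counts. The shares of respiratory chain, interferon response, and lymphocyte genes lay below these values in both directions.

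**Figure D1:**
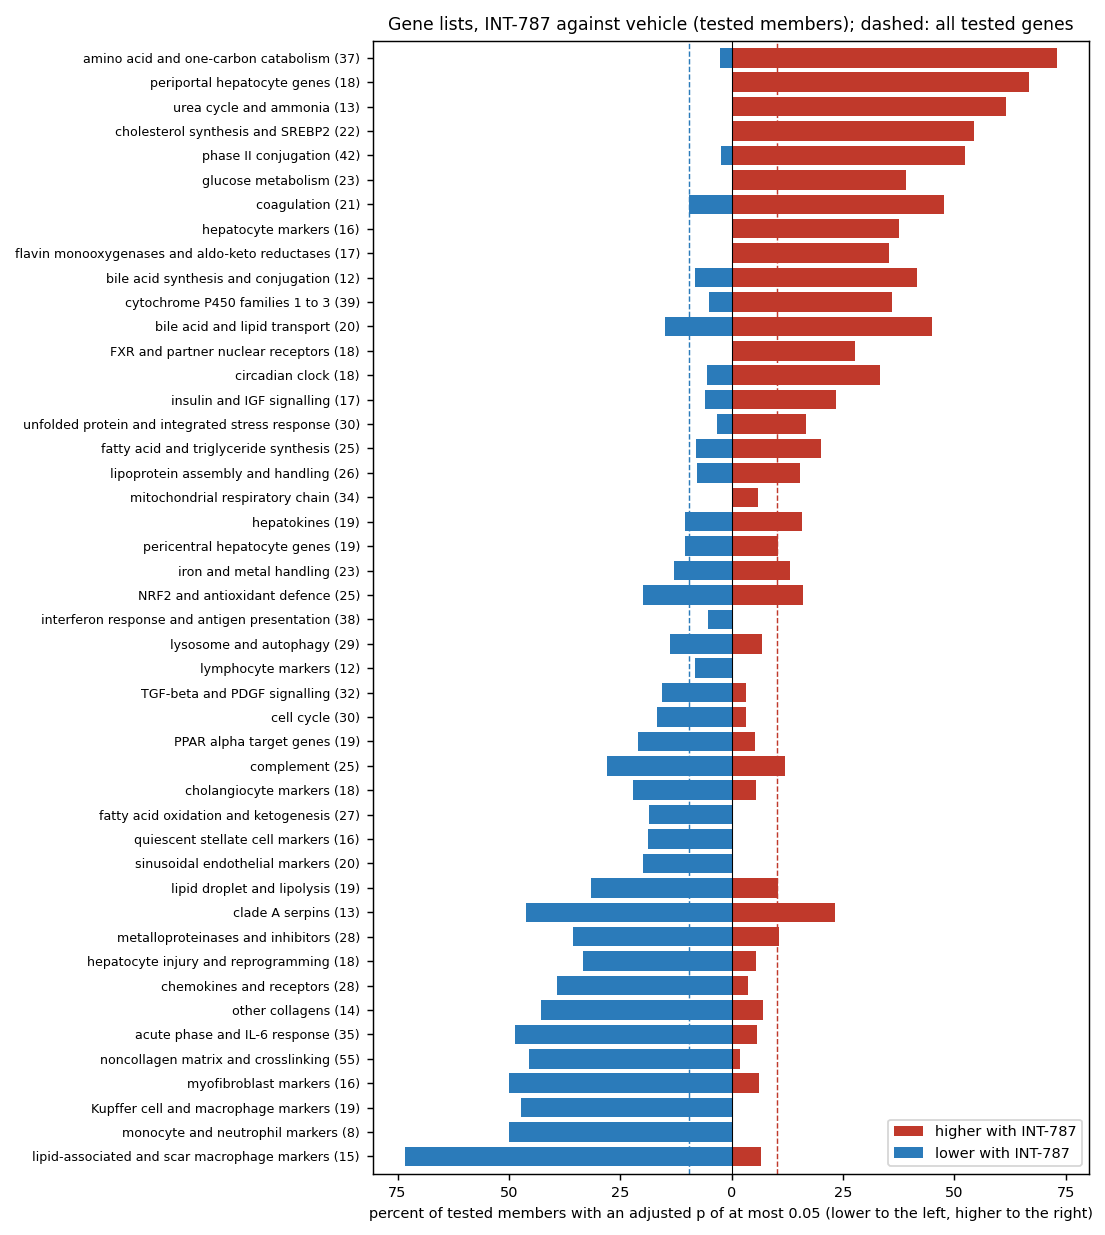
Percent of the tested members of each of 46 gene lists that passed an adjusted p of at most 0.05, with rises to the right and falls to the left, the number of tested members in parentheses, and dashed lines at the 10.2% of all tested genes that rose and the 9.48% that fell. Amino acid catabolism and periportal genes lie at the end of the rises (27 of 37 and 12 of 18 members), and lipid-associated macrophage markers at the end of the falls (11 of 15).

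*Ptgds*, which encodes the lipocalin-type synthase of prostaglandin D2, had the highest rise of any gene with a mean of at least 5 CPM. It was nearly silent with vehicle and expressed in every treated mouse, at 0 to 1.31 CPM (median 0.737) with vehicle and 70.3 to 424 CPM (median 104) with INT-787. Its log2 change was 7.67 ± 0.46 SE, adjusted p = 9.53e-14. The groups did not overlap, and vehicle values rested on 104 counts over all 10 mice. *Akr1b7*, an aldo-keto reductase that acts on lipid aldehydes, rose from a median of 0.655 to 11.1 CPM (3.86 ± 0.36 SE, adjusted p = 1.4e-09). *Tmprss4*, a membrane-bound serine protease, rose from a median of 2.16 to 27.1 CPM (3.59 ± 0.25 SE, adjusted p = 1.88e-12). *Dnah1*, an axonemal dynein heavy chain, rose from a median of 1.07 to 9.99 CPM and lay between 8.39 and 11.4 CPM in all treated mice. The water channel *Aqp4* rose 7.42-fold, to 37.8 to 124 CPM (median 85). In none of these 5 genes did any INT-787 mouse fall within the vehicle range.

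The next genes in order of rise were *Lrtm2* (5.64-fold), the DNA repair factor *Paxx* (log2 2.32 ± 0.19), *Tmem141* (2.31 ± 0.15), *Hal* (2.27 ± 0.11), *Etnppl* (2.21 ± 0.14), *Gsta2* (2.18 ± 0.18), and *Cyp3a59* (2.17 ± 0.17), all without overlap between the groups. *Cyp4a12b* (2.00 ± 0.55) and *Cyp2b13* (1.99 ± 0.57), members of P450 subfamilies known to differ between male and female mice, closed the 15 highest rises, and both overlapped widely with vehicle. *Cyp2b13* ranged from 0.419 to 35.9 CPM (median 4.84) among treated mice and no longer passed the test without INT-787 replicate 3 (adjusted p = 0.0602) or with limma's quality weights. Both genes have near-identical relatives that could share reads. The protease inhibitor *Mug2*, a murinoglobulin secreted by hepatocytes, was among the 10 genes with the lowest p and was the most abundant of them, at 533 to 802 CPM (median 653) with vehicle and 1934 to 2729.6 CPM (median 2420.1) with INT-787 (log2 1.82 ± 0.12 SE, adjusted p = 5.38e-13).

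**Figure D2:**
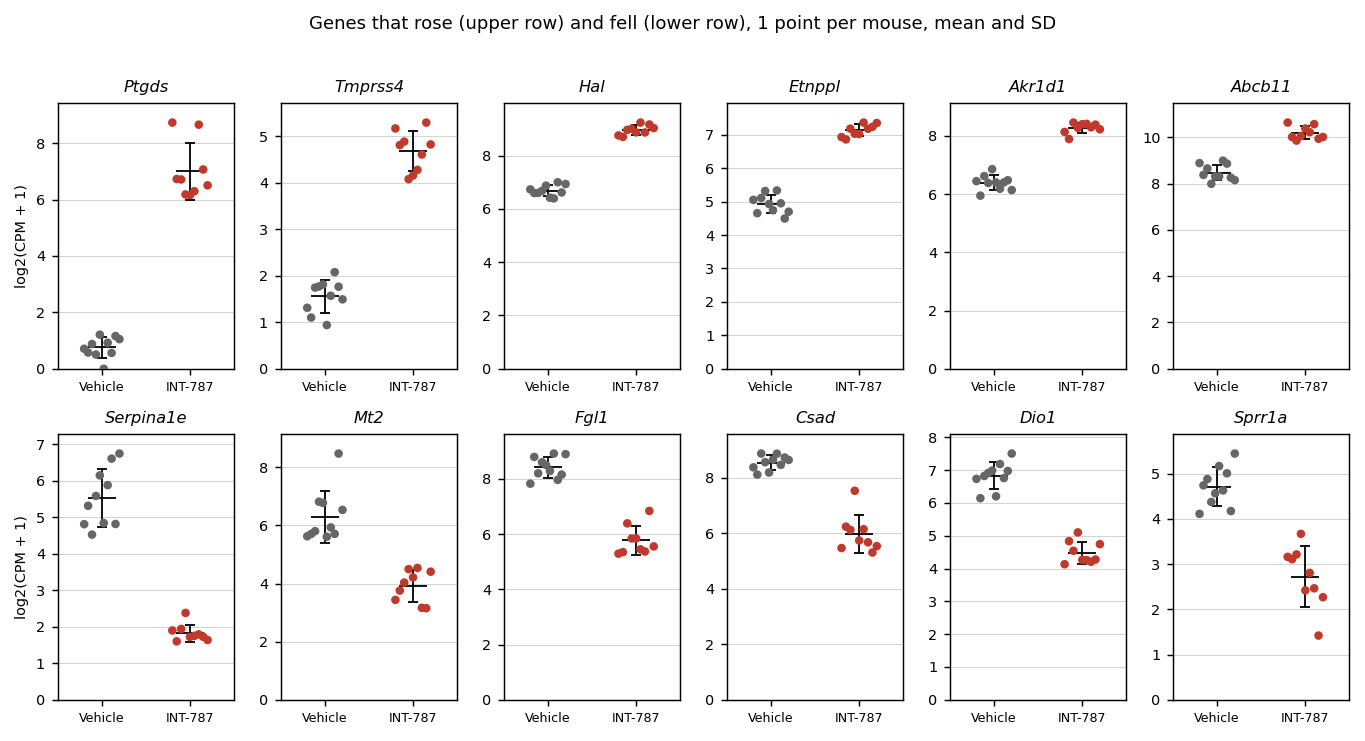
Level of 12 genes in each of the 10 vehicle and 9 INT-787 mice as log2(CPM + 1), with the mean and SD of each group. The 6 genes in the upper row rose and the 6 in the lower row fell, and in none of the 12 does a treated mouse fall within the vehicle range.

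*Ptgds*, *Paxx*, and *Tmem141* lie close together. On GRCm38, *Ptgds* (ENSMUSG00000015090) is at chr2:25466709-25470046, *Paxx* at chr2:25455141-25461094, and *Tmem141* at chr2:25620067-25622005. Of 24 other tested genes that start within 250 kb of *Ptgds*, 8 changed, 6 of them upward, *Paxx* and *Tmem141* included. Over all tested genes, 19.6% changed and 10.2% rose. *Obp2a*, which encodes another lipocalin, starts 230.0 kb away and rose from 0 to 0.875 CPM (median 0.24) to 1.19 to 10.1 CPM (median 3.46), with a log2 fold change of 4.06 ± 0.43 SE, adjusted p = 1.58e-08. The complement gene *C8g*, also a lipocalin, starts 31.7 kb away and rose by 0.80 ± 0.15, and the lipid transporter *Abca2* at 41.3 kb rose by 0.72 ± 0.13. Between these genes lie others that did not pass the test, among them *Fbxw5* (log2 0.25 ± 0.10, adjusted p = 0.0922), whose start is 30.7 kb from that of *Ptgds*. This neighborhood was examined after the positions of the highest rises were seen, so its counts are a description.

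**Figure D3:**
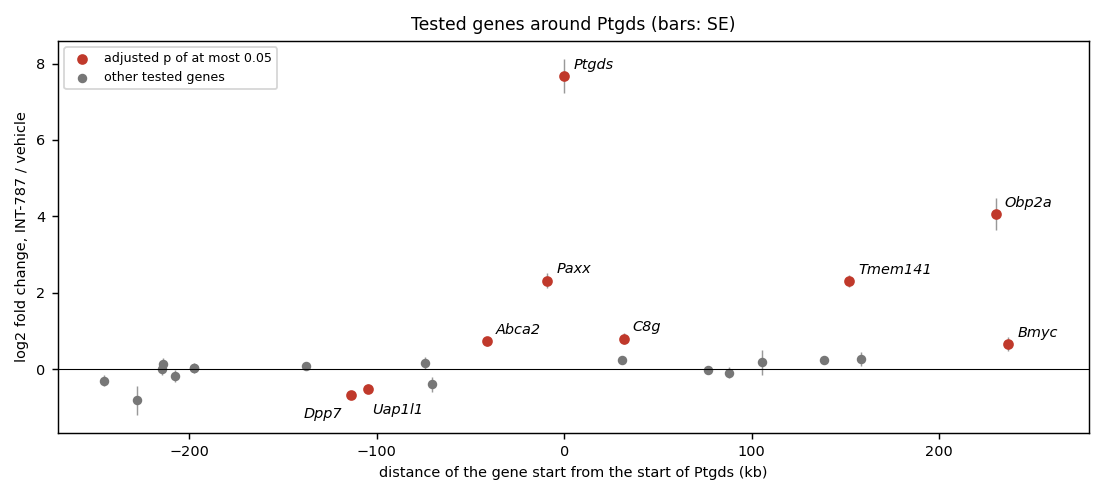
Log2 fold change of INT-787 over vehicle, with SE bars, for the tested genes that start within 250 kb of the start of *Ptgds*, plotted by distance in kb. Genes that passed an adjusted p of at most 0.05 are red and named, and *Ptgds*, *Obp2a*, *Paxx*, and *Tmem141* lie above 2 on the log2 scale while most others lie near 0.

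Among genes that fell, *Serpina1e* had the largest change apart from *Dlec1* and *Gm20721*, which rest on vehicle replicate 5 and are given below. It encodes a member of the mouse α1-antitrypsin family, and its close paralogs could share reads with it. Its level was 21.9 to 106 CPM (median 42.7) with vehicle and 2.03 to 4.19 CPM (median 2.36) with INT-787, a 20.4-fold fall (log2 -4.35 ± 0.34 SE, adjusted p = 3.03e-11). *Mt2* and *Mt1*, the metallothioneins that bind zinc and copper, fell together. *Mt2* was at 47.8 to 354 CPM (median 57.4) with vehicle and 7.89 to 22.2 CPM (median 15.4) with INT-787 (log2 -2.72 ± 0.36 SE, adjusted p = 9.61e-07), and *Mt1* changed by -2.10 ± 0.30. Every treated mouse was below every vehicle mouse for both genes, although vehicle replicate 9 was far above the other vehicle mice for *Mt2*. *Fgl1*, a fibrinogen-like protein secreted by hepatocytes, fell from a median of 336 to 45.9 CPM (log2 -2.62 ± 0.19 SE, adjusted p = 6.72e-12). *Dio1*, the deiodinase that activates thyroxine, fell 5.32-fold from a median of 116 to 18.4 CPM, also without overlap (adjusted p = 6.03e-13).

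*Csad*, which makes the taurine that mice use to conjugate bile acids, was at 275 to 466 CPM (median 386) with vehicle and 38.5 to 183 CPM (median 52.2) with INT-787 (log2 -2.44 ± 0.23 SE, adjusted p = 1.62e-09). INT-787 replicate 4 had the highest treated value and the other 8 treated mice lay well below it. *Cidea*, a lipid droplet protein that is induced in fatty liver, fell from a median of 57.4 to 9.65 CPM (log2 -2.10 ± 0.40 SE, adjusted p = 0.000215), with overlapping ranges. *Cyp2a4*, a steroid hydroxylase of the P450 family, fell from a median of 30.9 to 4.26 CPM (-2.53 ± 0.42 SE, adjusted p = 4.55e-05). *Sprr1a*, a small proline-rich protein of injured epithelia, fell from a median of 24.7 to 5.98 CPM without overlap (-2.06 ± 0.30 SE, adjusted p = 4.81e-06).

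The remaining 6 of the 15 deepest falls rested on vehicle replicate 5. *Dlec1* had 394 CPM in that mouse and at most 1.26 CPM in any other vehicle mouse, against 0.313 to 1.58 CPM (median 0.906) with INT-787. *Gm20721* had 947 CPM there and at most 6.93 elsewhere among vehicle mice. *Mmp11*, *Map3k12*, *Lrrc61*, and *Dvl2* had the same form, with 123, 114, 345, and 182 CPM in replicate 5. All 6 share exonic positions with a gene on the opposite strand. With replicate 5 the log2 fold changes ran from -5.54 for *Dlec1* to -2.25 for *Dvl2*, and without it they ran from -0.28 for *Mmp11* to 0.13 for *Lrrc61*, with adjusted p from 0.487 to 0.982. The scavenging chemokine receptor *Ackr4* behaved alike (log2 -2.62 with replicate 5 and 0.35 without it). *Csad*, *Gls2*, *Ucp2*, *Tagln*, and *Ccnd1* overlap opposite-strand exons too, and each passed without replicate 5. More widely, 37 of the 180 genes that fell at least 2-fold overlapped opposite-strand exons, against 2138 of all 12580 tested genes. Of those 37, 13 still passed without replicate 5, compared with 139 of the 143 without such overlap.

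**Figure D4:**
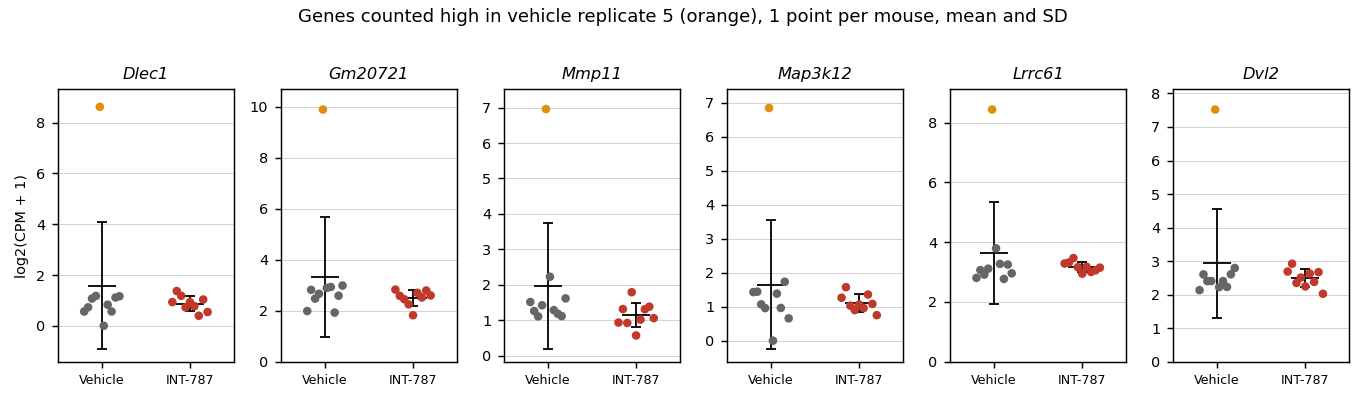
Level of 6 genes in each vehicle and INT-787 mouse as log2(CPM + 1), with the mean and SD of each group and vehicle replicate 5 in orange. In all 6 genes replicate 5 lies far above the other 9 vehicle mice, which lie in or near the range of the 9 INT-787 mice.

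Transcripts of the canalicular exporters *Abcb11* and *Abcb1a* rose, and those of related uptake carriers changed in both directions. *Abcb11*, the bile salt export pump of the canalicular membrane, was at 253 to 507 CPM (median 324) with vehicle and 925 to 1586 CPM (median 1062) with INT-787 (log2 1.70 ± 0.14 SE, adjusted p = 9.24e-11). *Abcb1a*, a canalicular drug exporter, rose from a median of 24.5 to 88.5 CPM (1.88 ± 0.17 SE, adjusted p = 3.37e-10), and *Slco1a4*, a sinusoidal uptake carrier, rose by 1.15 ± 0.19. The related carrier *Slco1a1* was near the limit of detection, with 158 counts over 10 vehicle mice and 29 over 9 treated mice, and fell by 2.59 on the log2 scale (adjusted p = 0.00842). In the list of bile acid and lipid transporters, 9 of 20 tested members rose and 3 fell, with a median log2 fold change of 0.27.

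Of 12 tested genes for bile acid synthesis and conjugation beyond the main synthetic hydroxylases, 5 rose and 1 fell. This list leaves out genes that the study names or labels, so its counts do not describe bile acid synthesis as a whole. *Akr1d1*, a steroid reductase that shapes the ring system of bile acids, was at 60.8 to 115 CPM (median 83.7) with vehicle and 237 to 351 CPM (median 313) with INT-787 (log2 1.89 ± 0.11 SE, adjusted p = 9.53e-14). *Cyp2c70*, which makes the muricholic acids of mice, rose from a median of 165 to 287 CPM (0.71 ± 0.14 SE, adjusted p = 0.000335). *Cyp39a1*, an oxysterol hydroxylase, and *Amacr*, a racemase for bile acid side chains, rose by 0.53 ± 0.12 and 0.56 ± 0.096. *Scp2*, the most abundant member, was at 1918 to 2987 CPM (median 2352) with vehicle and 1820.2 to 2365 CPM (median 2096) with INT-787 (-0.19 ± 0.11 SE, adjusted p = 0.26). Among 18 tested nuclear receptors and partners of FXR, the transcriptional repressor *Mafg* showed the largest change (from a median of 32.5 to 58.8 CPM, without overlap, log2 0.96 ± 0.10 SE, adjusted p = 3.1e-08), and the xenobiotic receptor *Nr1i2* rose by 0.58 ± 0.15. In all 5 of these genes rose and 0 fell, or 3 without vehicle replicate 5, 3 without vehicle replicate 9, and 2 with upper-quartile scaling.

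FXR binds IR-1, in which 2 copies of AGGTCA face each other across a gap of 1 base. Promoter sequences from RefSeq (GRCm38.p6), 250 bases before each start, were searched (the motif reads the same on both strands), and 9982 of the tested genes had an entry. Matches with at most 1 mismatch were found in 26 of 32851 promoters of all genes (0.0791%) and exact matches in 2 (0.00609%). The 10 tested genes with a match were *Abcb11*, *Steap3*, *Rdh9*, *Nbr1*, *Efemp2*, *Slco1b2*, *Saa4*, *Tbc1d14*, *Mtus2*, and *Rarg*. The first 4 rose and *Efemp2* fell (log2 -0.66 ± 0.16), and the other 5 did not pass the test, with log2 values from -0.15 to 0.35. Over all tested genes, 10.2% rose and 9.48% fell. Whether the 10 genes with a match changed more often than others was not tested. The 3 with the highest rises are shown because a match lies beside a measured change. *Steap3*, a ferrireductase, rose from a median of 41 to 89.7 CPM (1.10 ± 0.12), and *Rdh9*, a retinol dehydrogenase, from a median of 20.2 to 42.9 CPM (1.07 ± 0.12), both without overlap. The bases run 5′ to 3′ on the strand of the gene, end just before the start, and carry the match in capitals, at chr2:69342617-69342866, minus strand, for *Abcb11*, chr1:120270271-120270520, minus strand, for *Steap3*, and chr10:127776155-127776404, plus strand, for *Rdh9*. A match describes these letters and does not show that FXR binds there.
Abcb11: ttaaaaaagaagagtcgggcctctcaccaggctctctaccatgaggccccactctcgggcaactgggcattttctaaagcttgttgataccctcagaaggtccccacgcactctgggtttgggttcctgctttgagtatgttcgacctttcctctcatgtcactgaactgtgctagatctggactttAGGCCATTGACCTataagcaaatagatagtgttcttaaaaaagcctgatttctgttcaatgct
Steap3: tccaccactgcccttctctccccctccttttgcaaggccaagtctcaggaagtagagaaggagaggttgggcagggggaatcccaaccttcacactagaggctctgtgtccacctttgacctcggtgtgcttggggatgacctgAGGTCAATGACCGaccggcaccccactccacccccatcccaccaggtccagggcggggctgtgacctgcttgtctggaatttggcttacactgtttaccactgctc
Rdh9: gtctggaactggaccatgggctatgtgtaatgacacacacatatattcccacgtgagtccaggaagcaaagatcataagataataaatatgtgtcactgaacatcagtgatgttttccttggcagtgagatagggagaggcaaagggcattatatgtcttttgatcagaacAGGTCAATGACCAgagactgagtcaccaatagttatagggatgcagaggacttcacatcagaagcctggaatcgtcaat

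Transcripts for the enzymes of all 4 steps of histidine breakdown rose. *Hal*, histidine ammonia-lyase, catalyzes the first step and had the lowest p of all genes that the study did not label. It was at 83 to 127 CPM (median 99.1) with vehicle and 414 to 602 CPM (median 498) with INT-787 (log2 2.27 ± 0.11 SE, adjusted p = 4.08e-16). *Uroc1*, the urocanate hydratase of the next step, rose from a median of 305 to 583 CPM (1.03 ± 0.11 SE, adjusted p = 1.17e-08). *Amdhd1*, the imidazolonepropionase that follows, was at 113 to 139 CPM (median 122) with vehicle and 281 to 435 CPM (median 361) with INT-787 (1.51 ± 0.093 SE, adjusted p = 1.4e-13). *Ftcd*, the transferase that passes the final carbon to folate, rose from a median of 159.5 to 287 CPM (0.84 ± 0.083 SE, adjusted p = 3.91e-09). The 2 groups did not overlap for any of the 4 genes. *Hal* (ENSMUSG00000020017, chr10:93488768-93519304) and *Amdhd1* (chr10:93523338-93540033) are neighbors, whereas *Lta4h* on the other side of *Hal* did not pass (log2 0.022 ± 0.078, adjusted p = 0.89). These 4 enzymes were gathered as a pathway after their values were seen.

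Other amino acid genes rose with them. Of 37 tested genes of amino acid and one-carbon catabolism, 27 rose and 1, *Csad*, fell, with a median log2 fold change of 0.53. *Cth*, which forms cysteine from cystathionine, rose from a median of 74.8 to 224 CPM without overlap (1.73 ± 0.15 SE, adjusted p = 3.37e-10). In the urea cycle and ammonia handling, 8 of 13 tested genes rose and 0 fell (median 0.65). *Ass1*, argininosuccinate synthase, was at 594 to 873 CPM (median 700.3) with vehicle and 1334 to 2544 CPM (median 1887) with INT-787 (log2 1.42 ± 0.12 SE, adjusted p = 5.3e-11). *Cps1*, which fixes ammonia at the entry of the cycle, rose from a median of 1311 to 2432 CPM without overlap (0.99 ± 0.14), and the glutaminase *Gls2* and the mitochondrial carbonic anhydrase *Car5a* rose by 1.29 ± 0.15 and 1.07 ± 0.20.

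Many of these enzymes belong to periportal hepatocytes, which lie where blood enters the lobule. Of 18 tested periportal genes, 12 rose and 0 fell (median 0.83), whereas of 19 tested genes of the opposite, pericentral zone, 2 rose and 2 fell (median 0.13). The pericentral rises numbered 1 without vehicle replicate 5, vehicle replicate 10, or INT-787 replicate 8. Of the periportal genes, *Hsd17b6*, a steroid dehydrogenase, rose from a median of 155 to 571 CPM (1.84 ± 0.15 SE, adjusted p = 1.11e-10), and *Etnppl*, which breaks down phosphoethanolamine, was at 21.5 to 39.3 CPM (median 29.7) with vehicle and 115 to 164 CPM (median 144) with INT-787 (2.21 ± 0.14 SE, adjusted p = 1.4e-13). Of the pericentral genes, glutamine synthetase *Glul* was at 806 to 1539 CPM (median 1126) with vehicle and 834 to 1558 CPM (median 1181) with INT-787 (0.0045 ± 0.15 SE, adjusted p = 0.989), and *Cyp2e1* at 4036 to 8591 CPM (median 5452) with vehicle and 2847 to 6469.9 CPM (median 4665) with INT-787 (-0.36 ± 0.19 SE, adjusted p = 0.184). *Slc13a3*, a dicarboxylate carrier, fell from a median of 61.9 to 31.3 CPM without overlap (-1.20 ± 0.15 SE, adjusted p = 5.96e-07), *Aldh3a2*, a fatty aldehyde dehydrogenase, fell by 0.42 on the log2 scale, and *Notum*, a Wnt inhibitor, rose by 1.01 ± 0.17. A direct test between the zones was not made. General hepatocyte markers summed to 90220.0 to 171000.0 CPM with vehicle and 127500.0 to 208600.0 CPM with INT-787, and 6 of 16 rose (3 with upper-quartile scaling and 3 without INT-787 replicate 6), with *Asgr2*, a subunit of the asialoglycoprotein receptor, up by 1.02 ± 0.12. Their part in the rise of periportal genes was not tested.

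Transcripts for enzymes of drug metabolism rose. Phase II genes, which conjugate drugs and bile acids, were up in 22 of 42 tested members and down in 1 (median 0.42). Among the glutathione transferases, *Gstm3* was at 406 to 956 CPM (median 606) with vehicle and 1487 to 3798 CPM (median 2123) with INT-787 (log2 1.82 ± 0.19 SE, adjusted p = 1.58e-08). *Gsta4*, which detoxifies lipid aldehydes, rose from a median of 95.3 to 388 CPM (1.84 ± 0.15 SE, adjusted p = 5.12e-11), and *Gsta2* from a median of 24.5 to 108 CPM. *Gstm1*, the most abundant of the list, changed from a median of 4079.8 to 5629 CPM (0.56 ± 0.13). *Ugt1a9*, a glucuronosyltransferase, rose from a median of 12.2 to 32 CPM (1.63 ± 0.17). Glutathione transferases and Ugt1a enzymes have close relatives, and Ugt1a genes share exons, so single members are uncertain.

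Of 39 tested P450 genes of families 1 to 3, 14 rose and 2 fell (median 0.40). *Cyp3a59*, a drug-metabolizing P450, was at 17.7 to 36.4 CPM (median 27.9) with vehicle and 89.6 to 168 CPM (median 117) with INT-787 (log2 2.17 ± 0.17 SE, adjusted p = 3.34e-11). *Cyp2c39* rose from a median of 3.93 to 15.3 CPM (1.90 ± 0.20), also without overlap. Flavin monooxygenases and aldo-keto reductases rose in 6 of 17 and fell in 0, with *Fmo5*, the most abundant, at 975 to 1793 CPM (median 1263) with vehicle and 1769 to 2583 CPM (median 2399) with INT-787 (0.83 ± 0.12). In the antioxidant list governed by the transcription factor NRF2, 4 of 25 rose and 5 fell. The stress response gene *Osgin1* rose from a median of 57.5 to 122 CPM (1.21 ± 0.22) and *Gclm*, a subunit of the enzyme that starts glutathione synthesis, rose from a median of 262 to 406 CPM without overlap (0.59 ± 0.077). The quinone reductase *Nqo1* rose by 0.55 ± 0.15, whereas the peroxiredoxin *Prdx1* fell from a median of 675 to 506 CPM (-0.47 ± 0.087).

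Genes of cholesterol synthesis other than those the study labels also rose. Of 22 tested members, 12 rose and 0 fell (median 0.44). *Msmo1*, a sterol methyl oxidase, was at 29.5 to 42.6 CPM (median 36.5) with vehicle and 55.8 to 114 CPM (median 69.4) with INT-787 (log2 1.02 ± 0.12 SE, adjusted p = 7.91e-08). *Mvd*, mevalonate diphosphate decarboxylase, rose from a median of 6.12 to 12.4 CPM (1.13 ± 0.23 SE, adjusted p = 0.000411), and *Idi1*, the isomerase that follows it, rose from 2.43 to 4.33 CPM (0.85 ± 0.23). *Insig1*, a sterol sensor that restrains the pathway, rose by 0.91 ± 0.17. *Soat2*, which esterifies cholesterol for secretion, rose from a median of 36.8 to 68.7 CPM without overlap (0.95 ± 0.11 SE, adjusted p = 5.72e-08).

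Genes of fat handling moved in several directions. In fatty acid and triglyceride synthesis, 5 of 25 tested members rose and 2 fell, or 1 fell without vehicle replicate 10 or INT-787 replicate 8. *Acly*, which supplies acetyl units, and *Thrsp*, a lipogenic regulator, rose by 0.80 ± 0.20 and 1.10 ± 0.32. *Elovl5*, a fatty acid elongase and the most abundant of these genes, did not pass (0.27 ± 0.13, adjusted p = 0.156). *Mogat2*, which esterifies monoacylglycerol, rose from 0 to 1.36 CPM (median 0.873) to 1.49 to 5.1 CPM (median 3.66) (1.78 ± 0.22 SE, adjusted p = 3.8e-07). Lipid droplet and lipolysis genes fell in 6 of 19 and rose in 2 (median -0.21), with the droplet coat gene *Plin4* falling from a median of 73.1 to 33.3 CPM (-1.19 ± 0.27 SE, adjusted p = 0.00151), *Cidec* from a median of 203 to 102 CPM (-0.81 ± 0.19), and the fatty acid carrier *Fabp4* from a median of 40 to 12.9 CPM (-1.34 ± 0.27). *Plin2*, the main droplet coat of hepatocytes, was at 973 to 1529 CPM (median 1260.2) with vehicle and 846 to 1308 CPM (median 1052) with INT-787 and did not pass (-0.27 ± 0.11 SE, adjusted p = 0.0779), although it passed with upper-quartile scaling. Targets of the fatty acid receptor PPARα fell in 4 of 19 and rose in 1. The pantetheinase *Vnn1* fell from a median of 216 to 142 CPM (-0.69 ± 0.14), the uncoupling protein *Ucp2* from a median of 179 to 112 CPM without overlap (-0.80 ± 0.15), and the glycerol channel *Aqp7* from a median of 5.56 to 1.88 CPM without overlap (-1.50 ± 0.21). Of the fatty acid oxidation genes, *Acaa1b* and *Hadhb* fell by 0.63 and 0.46 on the log2 scale. The count for that list, 5 of 27 down and 0 up, dropped to 2 or 3 when any 1 of 12 of the 19 mice was left out, vehicle replicate 6 among them.

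Of 26 tested lipoprotein genes, 4 rose (15.4%, against 10.2% of all tested genes) and 2 fell (7.69%, against 9.48%). Hepatic lipase, *Lipc*, and *Tm6sf2*, which acts in the loading of secreted lipoproteins, rose by 0.70 ± 0.12 and 0.71 ± 0.13, and lipoprotein lipase, *Lpl*, fell from a median of 287 to 149 CPM (-0.74 ± 0.20 SE, adjusted p = 0.00974). *Apoe*, the most abundant, was at 22197 to 49031 CPM (median 32731) with vehicle and 27064 to 43501 CPM (median 32382) with INT-787 (-0.071 ± 0.14 SE, adjusted p = 0.778). In glucose metabolism, 9 of 23 tested members rose and 0 fell. The hepatic glucose transporter *Slc2a2* was at 438 to 675 CPM (median 578) with vehicle and 954 to 1380.1 CPM (median 1068) with INT-787 (log2 0.96 ± 0.092 SE, adjusted p = 2.05e-09). *Slc37a4*, which carries glucose phosphate into the endoplasmic reticulum, and *Khk*, the fructokinase, rose by 0.91 ± 0.16 and 0.67 ± 0.14, as did *Ppargc1a*, a coactivator of fasting genes (0.58 ± 0.16). Of 17 insulin and growth factor signaling genes, 4 rose and 1 fell, or 2 and 1 without vehicle replicate 5, 2 rose with upper-quartile scaling, and the total moved from 5 to 3 without any 1 of 6 of the 19 mice. *Igfbp2*, a secreted binder of insulin-like growth factors, rose from a median of 82.2 to 258 CPM without overlap (1.90 ± 0.17 SE, adjusted p = 5.69e-10), and the retinol carrier *Rbp4* rose from a median of 2192 to 3611 CPM (0.63 ± 0.13). The latter belongs to 19 hepatokines, of which 3 rose and 2 fell, a total that dropped to 2 or 3 without any 1 of 4 of the 19 mice. The selenium carrier *Selenop*, their most abundant member, was at 5958 to 8986 CPM (median 6842) with vehicle and 5811 to 8083 CPM (median 6473) with INT-787 (-0.050 ± 0.098 SE, adjusted p = 0.776).

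Acute phase genes, which hepatocytes induce in response to interleukin 6, fell. Of 35 tested members, 17 fell and 2 rose (median -0.33). Besides *Mt2*, *Fgl1*, and *Mt1*, serum amyloid *Saa2* fell from a median of 152 to 50.5 CPM, with ranges of 63.3 to 311 CPM (median 152) and 27.6 to 72 CPM (median 50.5) (-1.68 ± 0.22 SE, adjusted p = 7.27e-07). Haptoglobin, *Hp*, the most abundant member, fell from a median of 7592 to 5166 CPM (-0.63 ± 0.16 SE, adjusted p = 0.00525), and lipocalin 2, *Lcn2*, fell from a median of 407 to 228 CPM (-1.21 ± 0.24 SE, adjusted p = 0.000379). *Lcn2* was at 250.1 to 1386 CPM (median 407) with vehicle and 170.1 to 321 CPM (median 228) with INT-787, and the groups overlapped. In the overlapping list of iron and metal handling, 3 of 23 fell, *Mt1* and *Mt2* among them, and 3 rose, while the ferritin chain *Fth1* did not pass (0.13 ± 0.12, adjusted p = 0.479).

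Other secreted proteins of the hepatocyte changed in both directions. Of the clade A serpins, 6 of 13 fell and 3 rose, or 1 rose with upper-quartile scaling. *Serpina7*, the thyroxine-binding globulin, fell from a median of 225 to 73.9 CPM without overlap (-1.71 ± 0.17 SE, adjusted p = 2.22e-09), and *Serpina3k*, an abundant serpin, fell from a median of 2197 to 1127 CPM (-1.04 ± 0.21), whereas its paralog *Serpina3m* rose by 0.60 ± 0.11. In the complement system, 7 of 25 fell and 3 rose. *C6* and *C8a*, which form the membrane attack complex, fell from a median of 131 to 42.8 CPM (-1.41 ± 0.23) and from a median of 284 to 171 CPM (-0.74 ± 0.18), while *C8g*, a subunit that joins *C8a* in the same complex, rose from a median of 236 to 428 CPM. Factor D, *Cfd*, made mostly by adipocytes, had 311 counts over the 10 vehicle mice and 21 over the 9 treated mice (-4.08 ± 0.59 SE, adjusted p = 4.59e-06). *C3*, the central and most abundant component, was at 7539 to 13453 CPM (median 9672) with vehicle and 9296 to 16934 CPM (median 12444) with INT-787 and did not pass (0.30 ± 0.14 SE, adjusted p = 0.118). Coagulation genes rose in 10 of 21 and fell in 2 (median 0.27). The falls numbered 1 without vehicle replicate 5, vehicle replicate 6, or INT-787 replicate 8, and 3 without vehicle replicate 10. Antithrombin, *Serpinc1*, rose from a median of 1800.1 to 2883 CPM (0.56 ± 0.11), heparin cofactor *Serpind1* from a median of 312 to 503 CPM without overlap (0.67 ± 0.080), and plasma prekallikrein *Klkb1* by 0.71 ± 0.13, while protein S, *Pros1*, fell by 0.57 on the log2 scale.

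The lists of matrix genes leave out those that the study labels, which are mostly collagens. Of 55 tested genes for noncollagen matrix and crosslinking, 25 fell and 1 rose (median -0.56). *Lox*, the lysyl oxidase that crosslinks collagen and elastin, was at 4.41 to 15.6 CPM (median 6.95) with vehicle and 0.419 to 4.05 CPM (median 2.46) with INT-787 (log2 -1.82 ± 0.28 SE, adjusted p = 1.77e-05). Elastin, *Eln*, fell from a median of 18.3 to 6.61 CPM (-1.43 ± 0.28 SE, adjusted p = 0.000376), and the fibrillin *Fbn2* by 1.27 on the log2 scale. Versican, *Vcan*, a large proteoglycan of provisional matrix, fell from a median of 2.6 to 0.866 CPM (-1.43 ± 0.22 SE, adjusted p = 1.67e-05). The member that rose was fibronectin, *Fn1*, which hepatocytes also secrete, at 1270.1 to 2552 CPM (median 1991) with vehicle and 1786 to 3227 CPM (median 2653) with INT-787 (0.45 ± 0.13 SE, adjusted p = 0.0105).

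Of 14 other collagens tested, 6 fell and 1 rose. The basement membrane chains *Col4a1* and *Col4a2* fell from a median of 166 to 91.7 CPM (-0.80 ± 0.17 SE, adjusted p = 0.000903) and from a median of 142 to 78.7 CPM (-0.73 ± 0.19). *Col6a5* and *Col8a1*, both near or below 5 CPM, fell by 1.62 and 1.05 on the log2 scale. *Col18a1*, whose product hepatocytes make, rose from a median of 915 to 1244 CPM (0.47 ± 0.13 SE, adjusted p = 0.011). Among metalloproteinases and their inhibitors, 10 of 28 fell and 3 rose. *Reck*, a membrane-anchored inhibitor of metalloproteinases, rose from a median of 3.05 to 6.11 CPM without overlap (1.03 ± 0.14 SE, adjusted p = 1.14e-06), as did the protease *Adamts7* from a median of 4.2 to 9.35 CPM (1.00 ± 0.14). *Adam12*, a protease of activated stellate cells, was at 0.33 to 2.07 CPM (median 0.97) with vehicle and 0.0745 to 0.867 CPM (median 0.349) with INT-787 and fell by 1.22. Without vehicle replicate 1 its log2 fold change was -1.01 and did not pass (adjusted p = 0.0572). *Timp3*, the most abundant inhibitor, did not pass (-0.43 ± 0.19 SE, adjusted p = 0.114).

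Myofibroblasts are the contractile cells that activated stellate cells become. Of 16 tested markers, 8 fell and 1 rose. The actin-binding protein *Tagln* was at 13.3 to 33.8 CPM (median 20) with vehicle and 7.55 to 12.6 CPM (median 9.74) with INT-787 (log2 -1.11 ± 0.15 SE, adjusted p = 1.51e-06). The calcium-binding proteins *S100a6* and *S100a11* and the cytoskeletal adapter *Pdlim7* fell by 1.14, 1.28, and 0.88. The nonmuscle myosin *Myh9*, the most abundant marker, did not pass (0.086 ± 0.13, adjusted p = 0.702). Summed over all members, myofibroblast markers were at 968 to 1369 CPM with vehicle and 903 to 1270.0 CPM with INT-787, and markers of quiescent stellate cells at 506 to 716 CPM and 417 to 704 CPM. Of 16 quiescent stellate cell markers 3 fell and 0 rose. Without INT-787 replicate 7, 5 members passed, and 5 fell with upper-quartile scaling. *Lrat*, which esterifies retinol, fell from a median of 35 to 21.8 CPM (-0.55 ± 0.14 SE, adjusted p = 0.00404), and *Bco1*, which cleaves carotene, from a median of 7.8 to 4.7 CPM (-0.65 ± 0.16). In the list of TGF-β and PDGF signaling, 5 of 32 fell and 1 rose. *Inhbc*, a hepatocyte-made activin chain, fell from a median of 72.3 to 42.6 CPM (-0.69 ± 0.12 SE, adjusted p = 5.43e-05), and *Inhba*, another activin chain, fell by 0.56 on the log2 scale. The iron-responsive ligand *Bmp6* rose by 0.69 ± 0.14. The part of a smaller number of stellate cells in the fall of matrix genes was not tested.

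Markers of lipid-associated macrophages, which gather in fatty and scarred liver, fell in 11 of 15 tested members and rose in 1 (median -0.72). *Lgals3*, galectin-3, was at 68.8 to 167 CPM (median 102) with vehicle and 26.1 to 53.9 CPM (median 49) with INT-787 (log2 -1.31 ± 0.16 SE, adjusted p = 3.8e-07). The tetraspanin *Cd63* fell from a median of 159 to 91 CPM (-0.94 ± 0.17), the fatty acid carrier *Fabp5* from a median of 10.4 to 5.95 CPM without overlap (-0.91 ± 0.19), and osteopontin, *Spp1*, which cholangiocytes also make, from a median of 611 to 326 CPM (-0.74 ± 0.17 SE, adjusted p = 0.00207). The protease gene *Ctsl*, which many liver cells express, was the member that rose (0.34 ± 0.098). *Ms4a7*, a membrane protein of macrophages that enter from blood, fell from a median of 6.96 to 3.5 CPM (-1.05 ± 0.28). The whole list summed to 2484 to 3581 CPM with vehicle and 1758 to 2421 CPM with INT-787, without overlap.

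General macrophage and Kupffer cell markers fell in 9 of 19 and rose in 0. *Mpeg1*, a pore-forming protein of macrophages, was at 176 to 273 CPM (median 233) with vehicle and 108 to 162 CPM (median 142) with INT-787 (log2 -0.76 ± 0.12 SE, adjusted p = 2.99e-05), and the receptors *Cd14* and *Fcgr1* fell by 0.76 and 0.87. The defining markers of resident Kupffer cells, *Clec4f* and *Cd5l*, were at 34.6 to 98.1 CPM (median 83.1) with vehicle and 43.5 to 93 CPM (median 52.2) with INT-787 (-0.30 ± 0.22 SE, adjusted p = 0.357) and at 154 to 279 CPM (median 216) with vehicle and 105 to 213 CPM (median 167) with INT-787 (-0.42 ± 0.15 SE, adjusted p = 0.0529), and did not pass. The list summed to 1264 to 1617 CPM with vehicle and 805 to 1439 CPM with INT-787. Monocyte and neutrophil markers fell in 4 of 8. *Ccr2*, the receptor that draws monocytes into tissue, fell from a median of 13.7 to 6.61 CPM (-1.14 ± 0.18 SE, adjusted p = 2.13e-05), and *Plac8* and *Chil3*, both low, fell by 0.72 and 0.98. These 8 markers summed to 27.1 to 60.3 CPM with vehicle and 21.7 to 32.9 CPM with INT-787. In the chemokine list 11 of 28 fell and 1 rose, or 9 fell without vehicle replicate 5. The chemokine *Cxcl14* fell from a median of 14.2 to 6.04 CPM without overlap (-1.19 ± 0.18 SE, adjusted p = 1.02e-05), and the receptor *Ccr1* fell by 1.30. *Cxcl12*, the most abundant chemokine, did not pass (0.11 ± 0.11, adjusted p = 0.538). Of 29 tested lysosomal and autophagy genes, 4 fell (13.8%, against 9.48% of all tested genes) and 2 rose (6.9%, against 10.2%), and 7 fell with upper-quartile scaling. *Ctss*, a cathepsin of antigen-presenting cells, fell from a median of 201 to 132 CPM (-0.59 ± 0.15 SE, adjusted p = 0.00521) and *Ctsz* from a median of 415 to 322 CPM (-0.44 ± 0.11), whereas *Npc1*, which moves cholesterol out of lysosomes, rose from a median of 159 to 240.3 CPM (0.47 ± 0.086 SE, adjusted p = 0.000168) and the most abundant cathepsin, *Ctsb*, did not pass (-0.068 ± 0.098, adjusted p = 0.686). The part of a smaller number of macrophages in these falls was not tested.

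For other cell types, lymphocyte markers fell in 1 of 12 and sinusoidal endothelial markers in 4 of 20, a count that ranged from 2 to 7 as single mice were left out and was 8 with upper-quartile scaling. The B cell receptor gene *Cd79b* fell from a median of 2.07 to 1.24 CPM (-0.86 ± 0.22), and the scavenger receptors *Mrc1* and *Fcgr2b*, which sinusoidal endothelium and macrophages share, fell by 0.44 and 0.43. Erythrocyte genes summed to 173 to 650.0 CPM with vehicle and 114 to 406 with INT-787, and 0 of 5 changed. Cholangiocyte markers fell in 4 of 18 and rose in 1, or 2 and 1 without vehicle replicate 6, and the total moved to 3 without any 1 of 7 of the 19 mice. *Cftr*, a chloride channel of bile ducts, fell from a median of 2.82 to 1.37 CPM (-0.86 ± 0.25 SE, adjusted p = 0.0132). The keratin *Krt23*, which hepatocytes can induce, was the member that rose, at 3.25 to 5.75 CPM (median 3.99) with vehicle and 8.21 to 22.9 CPM (median 11.8) with INT-787 (1.64 ± 0.23 SE, adjusted p = 3.14e-06). Genes of hepatocyte injury fell in 6 of 18 and rose in 1, with the cell cycle inhibitor *Cdkn1a* falling from a median of 36.8 to 22.5 CPM (-0.78 ± 0.16 SE, adjusted p = 0.000713) and the annexins *Anxa2* from a median of 273 to 175 CPM (-0.82 ± 0.12) and *Anxa5* from a median of 937 to 725 CPM (-0.42 ± 0.10).

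*Ccnd1*, cyclin D1, rose apart from the rest of the cell cycle list. It was at 95.7 to 158 CPM (median 139.8) with vehicle and 288 to 477 CPM (median 399) with INT-787 (log2 1.53 ± 0.13 SE, adjusted p = 3.1e-10). Of 30 tested members, 5 fell and 1, *Ccnd1*, rose (median -0.51), and the count of 6 changed members became 11 without INT-787 replicate 5, while 8 members fell with upper-quartile scaling. The mitotic genes *Birc5*, *Ccna2*, and *Aurkb*, all low, fell from a median of 3.04 to 1.47 CPM, from a median of 4.58 to 2.62 CPM, and from a median of 1.91 to 0.908 CPM. Circadian clock genes rose in 6 of 18 and fell in 1 (median 0.38). *Per2*, a core repressor of the clock, was at 6.5 to 22.7 CPM (median 13.1) with vehicle and 10.8 to 39.9 CPM (median 30.4) with INT-787 (0.94 ± 0.21 SE, adjusted p = 0.00161), and the clock output regulator *Tef* rose by 0.69 ± 0.19. *Dbp*, the most abundant of the list, did not pass (0.47 ± 0.19, adjusted p = 0.0715). The hour at which each liver was taken is not given in the sources used here. Of 34 tested genes of the mitochondrial respiratory chain, 2 rose (5.88%, against 10.2% of all tested genes) and 0 fell, and genes of the unfolded protein response rose in 5 of 30 and fell in 1, or rose in 3 with upper-quartile scaling. The mitochondrial subunits *Ndufv1* and *Sdhb* rose by 0.36 ± 0.096 and 0.38 ± 0.12, and *Atp5b*, the most abundant of the list, was at 1063 to 1469 CPM (median 1241) with vehicle and 1269 to 1571 CPM (median 1395) with INT-787 and did not pass (0.21 ± 0.082 SE, adjusted p = 0.0682). In the stress response, *Herpud1*, which aids the removal of misfolded proteins, rose from a median of 440.1 to 611 CPM (0.55 ± 0.12 SE, adjusted p = 0.00162), and *Trib3*, a pseudokinase induced by stress, rose by 0.57 ± 0.17. *Chac1*, which degrades glutathione, fell from a median of 7.08 to 3.21 CPM (-0.91 ± 0.24), and the chaperone *Calr* did not pass (0.0086 ± 0.13, adjusted p = 0.976). Of 38 tested interferon response genes, 2 fell (5.26%, against 9.48% of all tested genes) and 0 rose, a count that ranged from 0 to 9 as single mice were left out and was highest without INT-787 replicate 8. The antigen-presentation gene *B2m* was at 1948 to 5027 CPM (median 2928) with vehicle and 2249 to 4077 CPM (median 2909) with INT-787 (-0.12 ± 0.15 SE, adjusted p = 0.626).

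INT-787 was compared with OCA at the same dose of 30 mg/kg and the same duration, and 677 genes differed (5.38% of those tested), 276 higher and 401 lower with INT-787. Both drugs share the vehicle mice, so differences were tested directly between the 9 mice of each. Matrix genes differed, with 19 of 55 noncollagen matrix genes below their OCA level in INT-787 mice and 0 above it. For *Lox* the difference was -1.79 ± 0.29 SE, adjusted p = 0.000159, and for *Eln* -1.96 ± 0.28 SE, adjusted p = 4.32e-05, where OCA had 11.9 to 56.3 CPM (median 20.8). Acute phase genes were lower with INT-787 in 21 of 35. *Fgl1* was at 231 to 431 CPM (median 278) with OCA, and its difference was -2.34 ± 0.19 SE, adjusted p = 1.01e-09. Lipid-associated macrophage markers were lower in 10 of 15, with *Lgals3* differing by -1.14 ± 0.17 SE, adjusted p = 4.6e-05.

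In the other direction, phase II genes were higher with INT-787 than with OCA in 17 of 42 and cholesterol synthesis genes in 10 of 22. *Gstm3* was at 709.7 to 1776 CPM (median 932) with OCA and differed by 1.12 ± 0.19 SE, adjusted p = 0.000472. *Mvd* was at 3.26 to 9.84 CPM (median 6.17) with OCA and differed by 1.15 ± 0.23 SE, adjusted p = 0.00195. Among the highest rises, *Ptgds* was higher with INT-787 than with OCA by 1.99 ± 0.33 SE, adjusted p = 0.000252, and OCA had 16.4 to 66 CPM (median 38.7). *Hal* differed between the drugs by 0.28 ± 0.11 SE, adjusted p = 0.131, and *Tmem141* by 0.28 ± 0.14 SE, adjusted p = 0.292, so no difference was detected for either. Leaving out OCA replicate 8 reduced the number of genes that differed from 677 to 443, with 16 noncollagen matrix, 21 acute phase, 6 lipid-associated macrophage, 16 phase II, and 6 cholesterol synthesis genes among them.

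**Figure D5:**
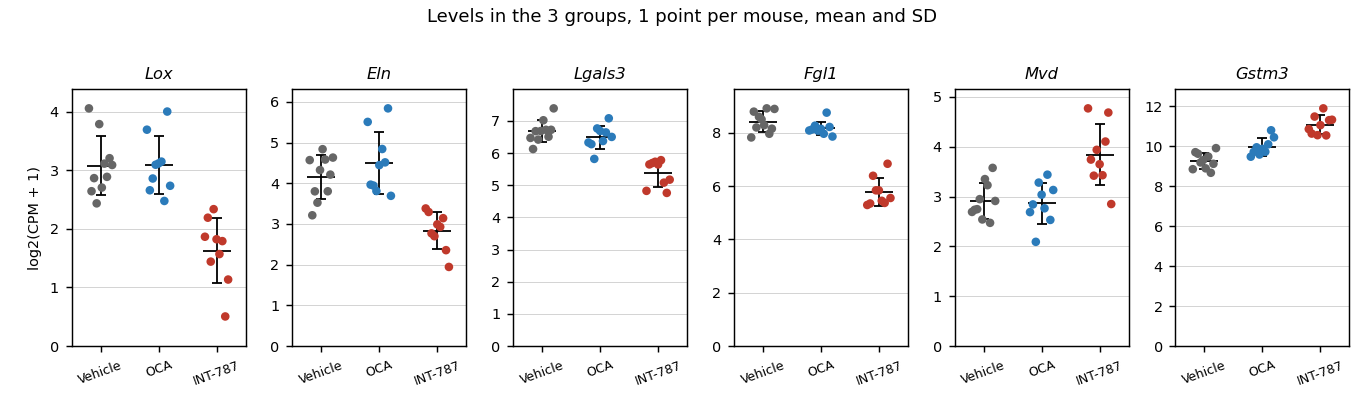
Level of 6 genes in each mouse of the 3 groups as log2(CPM + 1), with the mean and SD of each group. *Lox*, *Eln*, *Lgals3*, and *Fgl1* are lower and *Mvd* and *Gstm3* higher with INT-787 than with OCA, with log2 differences between -2.34 for *Fgl1* and 1.15 for *Mvd*.

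The comparison was repeated without vehicle libraries that stood apart. Without vehicle replicate 5, 2288 genes changed, and 2166 of the 2469 (87.7%) were the same genes in the same direction. Without replicate 6 the numbers were 2422 and 2320 (94.0%), and without both 2182 and 2071 (83.9%). Of 303 genes lost without replicate 5, 82 overlapped opposite-strand exons, while among all changed genes 378 had such overlap and 2090 did not. Without both mice, 24 amino acid genes, 11 periportal genes, 22 phase II genes, and 12 cholesterol synthesis genes rose, and 15 acute phase genes, 23 noncollagen matrix genes, and 9 lipid-associated macrophage markers fell. In limma's quality weights, where a low weight marks a library that varies more, vehicle replicate 10 had the lowest of all 28 libraries (0.271), below vehicle replicate 5 (0.428), whereas vehicle replicate 6 had 1.54. Without vehicle replicate 10, 2484 genes changed, and the same lists had 28 amino acid, 13 periportal, 24 phase II, and 13 cholesterol synthesis genes up and 17 acute phase, 27 noncollagen matrix, and 10 lipid-associated macrophage genes down.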

How the data were processed

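Liver RNA of 28 male mice was sequenced from stranded libraries, and 19 of the mice are described here. The authors aligned reads to GRCm38 with STAR and deposited raw counts per Ensembl gene, 1 column per mouse. The counting program and its use of strand are not given in the sources used here, so genes that overlap on opposite strands, and close paralogs, are uncertain. Of 21935 genes, 21858 matched GENCODE M21. No sample column lay outside the series.

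Groups came from the labels. Genes kept by filterByExpr (12580) were normalized by TMM and tested with glmQLFit and glmQLFTest of edgeR 4.0.16 (R 4.3.3) in a model of the 3 groups, with Benjamini-Hochberg adjustment. CPM were computed on TMM-scaled library sizes. Alternatives changed the scaling, the filter, the mice in the fit, and the replicate block, or used DESeq2 1.42.0 and limma 3.58.1. Tables and figures used Python 3.11.15, numpy 2.4.6, pandas 2.3.3, and matplotlib 3.10.9. Depth was 1009593 to 22128216 counts per mouse.

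The members and gene lists were chosen with earlier results of these data known. Named genes are the 15 highest rises and 15 deepest falls (adjusted p of at most 0.05, mean of at least 5 CPM, same direction in replicates 1 to 5 and from 6 up, not labeled in the figures of the study), the 10 lowest p, and from each list the 4 largest changes and the most abundant member. Any gene of a list with at most 20 tested members may be given, and other genes are marked as chosen later. List symbols were matched through RefSeq synonyms, and 6 did not match. Named members whose call was lost without several single mice are mostly left out of the text. Several named genes have no values here.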

Additional observations from a re-analysis of the deposited data

Results flagged for a closer look

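Of 372 groups of mice examined, that is 186 genes named in the text in each of the 2 groups, 28 held a mouse whose gap to its nearest neighbor was a larger part of the group's range than Dixon's 95% critical value. The gap as a share of the range stands in parentheses below. Chance flags about 1 in 20 groups. Vehicle replicate 5 stood apart in 9 genes. The 7 genes that lost their call without it had gap ratios of 0.864 for *Dlec1*, 0.867 for *Gm20721*, 0.809 for *Mmp11*, 0.747 for *Map3k12*, 0.819 for *Lrrc61*, 0.877 for *Dvl2*, and 0.841 for *Ackr4*, all as the highest vehicle mouse. The same mouse was lowest for *Abca2* (0.467) and highest for *Reck* (0.472).

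INT-787 replicate 4 stood apart in 6 genes, in each toward the vehicle mice. It was the highest treated mouse for *Serpina1e* (0.564), *Csad* (0.581), and *Fabp4* (0.65), with 183 CPM of *Csad* against a median of 51.1 in the other 8, and the lowest for *Hsd17b6* (0.597), *Soat2* (0.584), and *Dbp* (0.522). INT-787 replicate 8 was the highest treated mouse for *Osgin1* (0.505, 296 CPM against a median of 116), *Plac8* (0.55), and *Adamts7* (0.501). Replicate 9 was lowest for *Cd14* (0.547) and replicate 6 for *Inhba* (0.499).

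Among other vehicle mice, replicate 10 was highest for *Gstm1* (0.483), *Lipc* (0.507), and *Inhbc* (0.551), and lowest for *Inhba* (0.473). Replicate 9 was highest for *Mt2* (0.579, 354 CPM against a median of 54.8 in the others) and lowest for *Slc2a2* (0.479). Replicate 6, the shallow library, was lowest for *Cyp2c39* (0.631) and *Mogat2* (0.68), which had 0 counts there.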

How the results depend on the processing

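The number of genes changed by INT-787, 2469, was 2417 with the replicate number as a block, 2710 with the sample number set as a factor, 2487 with DESeq2 size factors, 2453 with no filter, 1765 when every mouse needed 10 counts, 2506 without the OCA mice, 2119 without genes that overlap opposite-strand exons, 2699 and 2764 with DESeq2 on 3 and 2 groups, and 3173 with limma's quality weights. Leaving out single mice gave 2116 to 2484 genes, 1128 to 1311 higher and 981 to 1199 lower, and 443 to 888 genes between INT-787 and OCA, the lowest without OCA replicate 8. The replicate numbers did not pair INT-787 with vehicle mice, since 2 of 9 correlations of deviations passed 0.1 and 0 mice correlated best with their own number. Between INT-787 and OCA mice, 6 of 9 correlations passed 0.1 by replicate number and 6 of 8 by sample number set (highest 0.427), with 4 and 5 mice best with their own, so not every pair passed. Genes that differ between INT-787 and OCA numbered 677 without a block, 677 with the replicate block, and 654 with the set as a factor. The replicate block changed the count of no comparison by over 1.5 times, and *Cyp2b13* and the 7 genes that rest on vehicle replicate 5 lost their call under it.

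*Dlec1* turned from a fall to 0.017 on the log2 scale without vehicle replicate 5, 0.042 with DESeq2 on 3 groups, and 0.027 on 2 groups. Under the same 3 settings and without vehicle replicates 5 and 6, *Lrrc61* gave 0.13, 0.13, 0.13, and 0.18, *Dvl2* 0.077, 0.070, 0.071, and 0.069, and *Ackr4* 0.35, 0.33, 0.33, and 0.37, with 0.13 for *Ackr4* with quality weights. None of these values passed the test. As single mice were left out, *Dlec1* ranged from -5.73 to 0.017, *Lrrc61* from -2.52 to 0.13, *Dvl2* from -2.39 to 0.077, and *Ackr4* from -2.78 to 0.35. Their vehicle level came from replicate 5, which these settings leave out, replace as an outlier, or weight less. *Plin2*, *C3*, and *Cd5l*, which did not pass, passed under at least 1 alternative. With upper-quartile scaling 1 gene in place of 2 rose in each of the acute phase, lipid droplet, and pericentral lists, and 2 in place of 1 fell among clock genes. Depth limits genes near 1 CPM in vehicle replicate 6.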

Other observations

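Treated mice differed in how far they were from vehicle. Over 312 genes that changed at least 2-fold and did not overlap opposite-strand exons, INT-787 replicate 4 was the treated mouse nearest the vehicle mean in 77 (24.7%), with 39 genes that rose and 38 that fell, and replicate 2 in 47 (15.1%). Each of the other treated mice was nearest in 5.77% to 10.9%. Replicate 8 was farthest from vehicle in 72. This count was made after the values were seen.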
